A study of Homo sapiens with 3 samples.

Results

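The expression change of Huh7 cells after chlorogenic acid (CA) at 50 μM was examined in the genes that the array measured more than once. Huh7 is an established human hepatoma line, and CA is a plant polyphenol whose effect on the differentiation of tumor cells was the subject of the study. A gene entered when at least 2 different probes with its RefSeq accessions gave a signal well above background, by the scanner software's flag, on both the untreated and the CA 50 μM array. This held for 3266 of the 14700 genes with any such probe (22.2%), and for 3266 of the 19740 genes named on the array. The value of a gene is the median over its probes of log2 (CA 50 μM / untreated), and the agreement of the probes in sign and size served as the check on that value.

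Untreated Huh7 cells were compared with Huh7 cells given CA at a dose of 50 or of 100 μM in 3 groups, with the treated cells exposed for 24 h, then trypsinized and re-suspended in medium without serum. The labels name no solvent and no time for the untreated cells, and all groups had been grown in DMEM with fetal calf serum. Each group gave 1 Cy3 sample on 1 one-colour Agilent array. Thus there was no test, and each difference below is a difference between 2 arrays of 1 cell line with no replicate check.

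Each probe is a short oligonucleotide matched to a stretch of an mRNA. Probes of the same gene share the cells, the RNA and the hybridisation, so that they are repeated readings of 1 pair of samples and not replicates of the treatment. They can still differ, because a probe may read only some transcript variants, may also bind a related gene, or may be too dim to follow a change. Hepatoma cells of this kind secrete plasma proteins and divide fast, and depend on glycolysis as well as on mitochondria for energy.

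The measured spots made up 70.4% of gene spots on the untreated array and 71.1% on the CA 50 μM array, and the 75th percentile of the signal, to which the arrays were scaled, was 1059 and 1207 intensity units. Among 15 hepatocyte markers, 13 were well above background in untreated cells and 14 at CA 50 μM, with summed signals of 420317 and 436134. TF had no value on either array because its spot was left out as an outlier. The marker that differed was HNF4A, with 9.4 and 21.8 units by 1 probe, near the limit of detection. It was again not well above background at CA 100 μM (15.5 units). Markers of fibroblasts, endothelium and blood cells summed to 967, 801 and 1084 in untreated cells and to 1107, 1095 and 1482 at CA 50 μM. ALB, which encodes serum albumin, read 109428 and 112826. These signals and sums are before scaling to the 75th percentile, which was itself higher at CA 50 μM. After scaling, ALB had a log2 ratio of -0.15. On the CA 100 μM array, which serves only for values set side by side, 5166 of 43118 gene spots lay in a disturbed area, against 290 and 166 on the untreated and CA 50 μM arrays.

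The genes were selected by signal on the same arrays that gave the ratios. The dimmest probe that entered had 12.9 intensity units in untreated cells and 13.8 at CA 50 μM, whereas the brightest probe kept out, of a gene with several probes, had 18.7 and 18.2. A gene that left or reached background on either array could not enter through that probe. Of the 4994 genes with at least 2 probes on the array, 1728 did not enter, among which 996 had 1 measured probe and 732 had 0. The 3266 genes brought 7139 probes, and 2774 of them had 2 measured probes, 405 had 3 and 87 had 4 or more.

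Most of these genes differed little between the arrays. The gene values had a median of 0.02 and an SD of 0.24 on the log2 scale, with 67.0% of genes within 0.2 of 0, and ran from -1.52 for RAB12, a small GTPase of membrane traffic, to 1.32 for MAZ, a zinc finger factor that binds GC-rich promoters. For comparison, the 11434 genes with 1 measured probe had an SD of 0.33. At a size of 1.5-fold, 80 of the 3266 genes were higher at CA 50 μM (2.45%), beside 4.19% of all measured genes and 4.69% of genes with 1 measured probe. Lower by this size were 16 (0.49%), beside 2.09% and 2.55%. Thus the shares were below the background in both directions. A median over several probes varies less than a single probe, so this contrast is partly built in.

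The 1.5-fold line lies at 0.58 on the log2 scale and separates neighbouring values. Just inside it on the higher side were UBE2J2 and ASPSCR1, both at 0.59, and just outside were DCAKD and NRSN2, both at 0.58. On the lower side DYNLT3 (-0.59) and MACF1 (-0.60) were inside and FXYD3 and TBC1D8B (both -0.57) were outside.

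A stricter reading asks that every measured probe of a gene changed by at least 1.5-fold in the same direction. For this, 34 genes were higher and 6 were lower, beside 3.88% and 2.02% of all measured genes, most of which have 1 probe and meet the demand with it alone. At 2-fold by the gene value the counts were 6 higher and 6 lower, beside 0.456% and 0.49% of all measured genes. Every probe passed 2-fold in 3 of the former and 4 of the latter. The 3 were MAZ, CFL1 and NKIRAS2, and the 4 were PFKP, WFDC2, LDHB and RAB12.

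**Figure D1:**
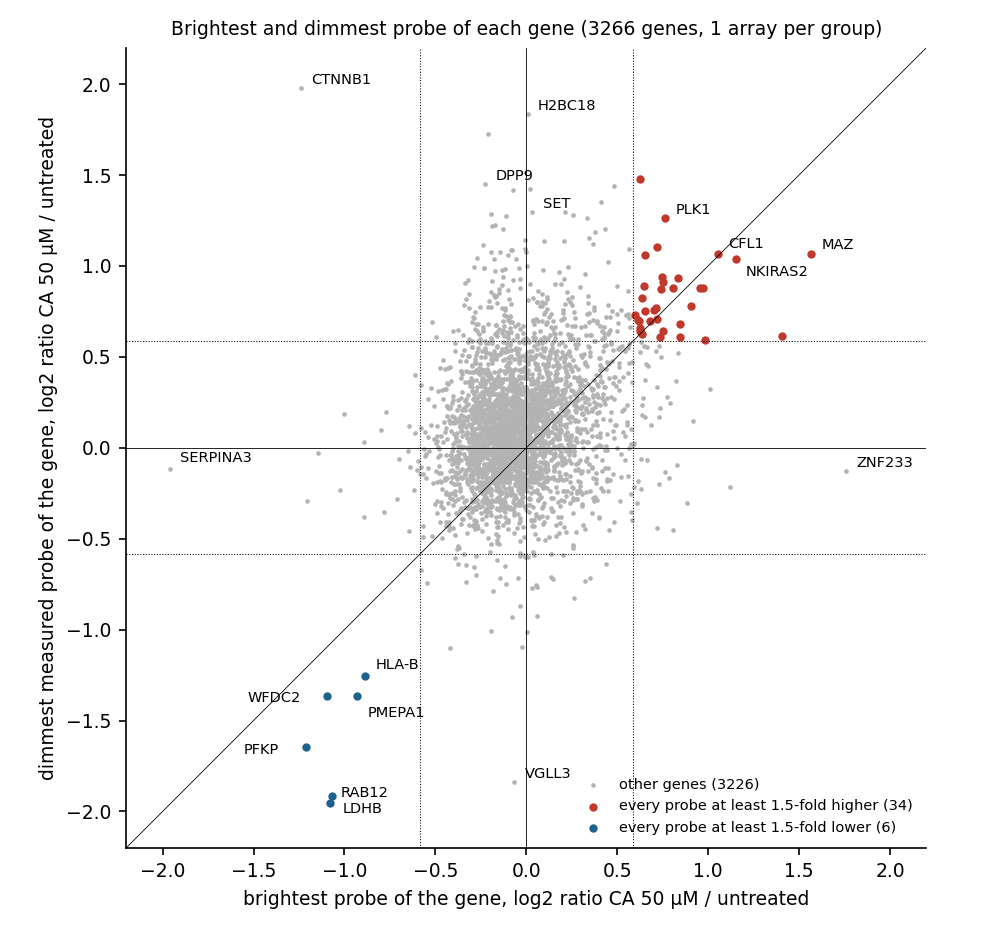
Each point is 1 of 3266 genes, with log2 (CA 50 μM / untreated) of its brightest probe on the x axis and that of its dimmest measured probe on the y axis; dotted lines mark 1.5-fold. The 34 genes with every probe at least 1.5-fold higher lie at the upper right and the 6 lower ones at the lower left, while most genes that left the centre did so along 1 axis only, and CTNNB1 is alone at the upper left.

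MAZ, whose product was first described for binding the MYC promoter, gave the highest gene value. Its brighter probe read 120.1 intensity units in untreated cells, 405 at CA 50 μM and 221 at CA 100 μM. Its dimmer probe, which carries another accession, read 39.0, 93.2 and 66.1. Hence both probes were highest on the CA 50 μM array and intermediate at CA 100 μM, and after scaling the ratios to untreated were 2.96-fold and 2.10-fold at CA 50 μM, or 1.56 and 1.07 on the log2 scale. At CA 100 μM they were 0.64 and 0.52 on that scale. Across the alternatives, the gene value of MAZ ran from 0.77 after normexp background correction to 1.56 for its brightest probe alone.

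CFL1 encodes cofilin, which severs actin filaments, and was the brightest of the genes with every probe at least 1.5-fold higher. Its probes read 4175 and 2143 units in untreated cells, 9878 and 5118 at CA 50 μM, and 6562 and 3448 at CA 100 μM. The log2 ratios at CA 50 μM were 1.05 and 1.07, so that the probes differed by 0.01, which is less than the spread of 0.06 (median SD) between spots of probes printed 10 times. NKIRAS2, a Ras-like protein that binds inhibitors of NF-κB, read 241 and 189 units in untreated cells, 610.5 and 442 at CA 50 μM, and 389.6 and 302 at CA 100 μM. Both its probes were thus more than 2-fold higher after scaling, with log2 ratios of 1.15 and 1.04.

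The next genes by the probe nearest to 0 had roles in the cytoskeleton, signalling, RNA decay, mitochondria and mitosis. SSBP3, a partner of LIM-domain transcription complexes, read 603 and 297 units in untreated cells and 1332 and 625 at CA 50 μM, and returned to 699.7 and 349 at CA 100 μM. Its log2 ratios were therefore 0.95 and 0.88 at CA 50 μM and -0.02 and -0.01 at CA 100 μM, the lowest gene value at CA 100 μM among the 34 genes. PODXL2, a sialomucin of the cell surface, had 44.6 and 24.5 units in untreated cells and 99.6 and 51.5 at CA 50 μM (log2 ratios 0.97 and 0.88). CORO1B, a coronin that acts on branched actin, had 220 and 70.0 units in untreated cells, and 447 and 152 at CA 50 μM (0.84 and 0.93). In each of these genes the brighter and the dimmer probe differed by at most 0.10 in their ratio.

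PEA15, a death-effector-domain protein that holds ERK in the cytoplasm, had log2 ratios of 0.80 and 0.88. TOMM40, the channel through which proteins enter mitochondria, had 0.90 and 0.78. PLK1, the kinase that drives entry into and progress through mitosis, read 471 and 19.1 units in untreated cells, 911 and 52.2 at CA 50 μM, and 590.1 and 35.0 at CA 100 μM. Its log2 ratios of 0.76 and 1.26 differed by more than those of the genes above, and the larger one came from a probe that started near background. DIS3L2, an exonuclease of uridylated RNAs, had 0.75 and 0.91. ZNF791, a zinc finger protein, had 0.74 and 0.94, and SAMD4B, a relative of the RNA-binding protein Smaug, had 0.74 and 0.87. These genes ranged from 13.6 units (the dimmer SAMD4B probe in untreated cells) to 942 (the brighter ZNF791 probe at CA 50 μM). After normexp background correction, the gene values of PODXL2 (0.38), PLK1 (0.47), DIS3L2 (0.39) and SAMD4B (0.29) no longer passed 1.5-fold.

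The other 22 genes with every probe at least 1.5-fold higher covered varied functions. Of enzymes of small-molecule metabolism, GSTM2 (glutathione transfer) had a gene value of 0.86, CHDH (choline oxidation) 0.76, GPX3 (a secreted glutathione peroxidase) 0.74 and FPGS (folate polyglutamation) 0.73. Of regulators of chromatin, transcription and the nucleolus, SETD5 had 0.69, GNL3L 0.66, MED18 of the Mediator complex 0.64 and ERCC2, a helicase of TFIIH, 0.63. SIRT2, a deacetylase found mainly in the cytoplasm, had 0.71. Of signalling proteins, PPP3R1, the regulatory subunit of calcineurin, had 0.79, ABHD17A, a depalmitoylase, 0.74, and PRKAR1B, a regulatory subunit of protein kinase A, 0.65. ABHD17A and PRKAR1B were the genes of this set with 3 probes, and all 3 probes lay between 0.65 and 0.89 in the former and between 0.63 and 0.75 in the latter.

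Of proteins of the surface and the secretory pathway, CACNG4 had 0.91, ECE1 and CNPY3 0.73 each, PLXNB2, a semaphorin receptor, 0.70 and IGSF8 0.63. LRRC45, of the linker between centrosomes, had 1.01, ATAD3C 1.05, and ATG13, of the complex that starts autophagy, 0.66. The remainder were the noncoding SND1-IT1 (0.66) and the pseudogene CA5BP1 (0.67). SETD5 was one of the few bright genes here, with 1559 and 1353 units in untreated cells and 2850 and 2504 at CA 50 μM, whereas the brighter probe of LRRC45 had 31.0 units in untreated cells.

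The 34 genes were dim as a set: their probes had a median of 98.1 units in untreated cells, from 13.6 to 4175, against 468 for all 7139 probes. At CA 100 μM their gene values had a median of 0.39 and ran from -0.02 to 1.18, whereas at CA 50 μM the median was 0.77 and the range 0.63 to 1.32. Both ratios of a gene share the untreated array, so these values are set side by side without a count of agreement. The genes were chosen by their values at CA 50 μM, so smaller values at CA 100 μM are partly built in.

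**Figure D2:**
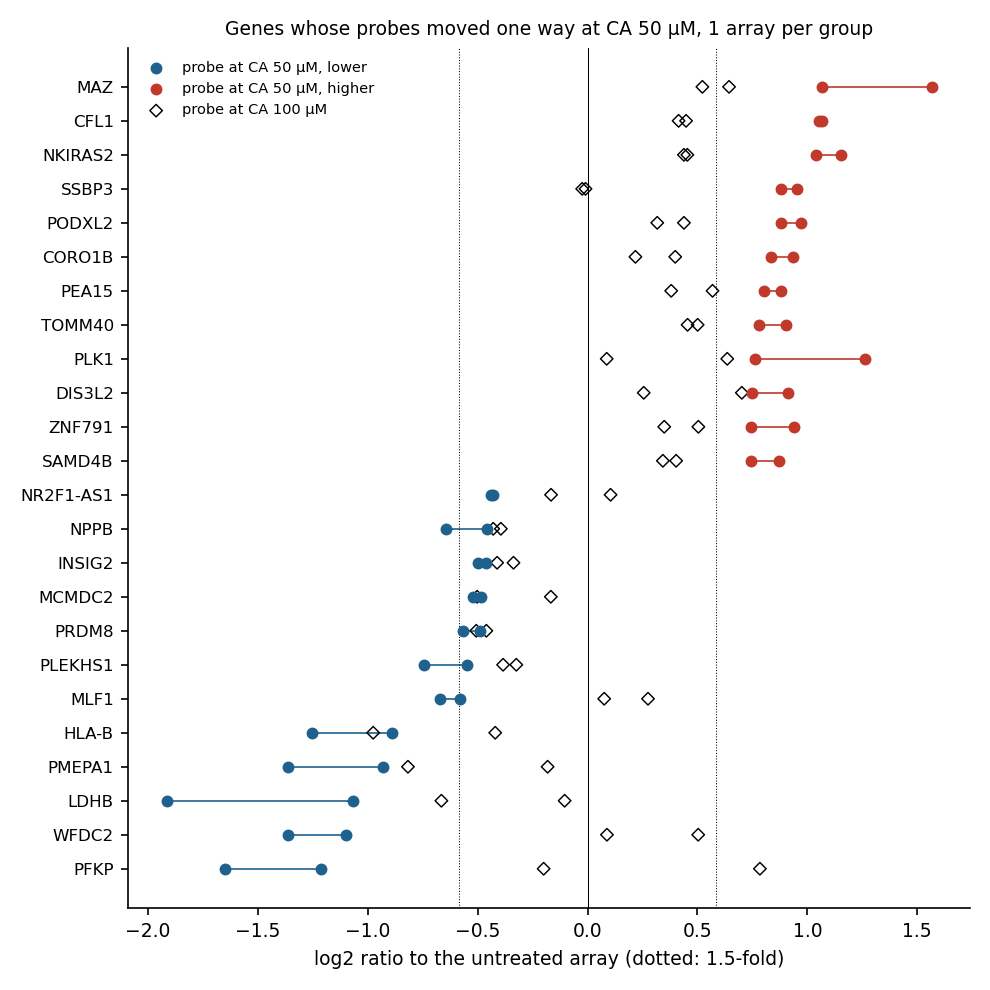
Log2 ratio to the untreated array (x axis; dotted lines, 1.5-fold) of each probe of the 12 genes highest and the 12 genes lowest by their probe nearest to 0, with probes at CA 50 μM filled and joined, and at CA 100 μM as open diamonds. The higher genes reach from 0.74 to 1.56 at CA 50 μM, and PFKP, WFDC2, MLF1 and NR2F1-AS1 had probes above 0 at CA 100 μM although every probe was below 0 at CA 50 μM.

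On the lower side, 2 of the 5 leading genes were enzymes of glucose breakdown. PFKP is the platelet form of phosphofructokinase, which sets the pace of glycolysis. Its probes read 247 and 223 units in untreated cells, 122 and 81.3 at CA 50 μM, and 254 and 454 at CA 100 μM. The log2 ratios were -1.21 and -1.65 at CA 50 μM, and -0.20 and 0.78 at CA 100 μM, so that both probes were lowest on the CA 50 μM array. LDHB, a lactate dehydrogenase subunit that favours the use of lactate, read 1276 and 343 units in untreated cells, 694 and 104 at CA 50 μM, and 949 and 376 at CA 100 μM. Its ratios were -1.07 and -1.91 at CA 50 μM and -0.66 and -0.10 at CA 100 μM. The lowest array was again CA 50 μM for both probes. Choosing genes by their fall at CA 50 μM favours this order, here and in the lower genes that follow.

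WFDC2, a secreted protease inhibitor known as HE4, read 171 and 37.8 units in untreated cells, 91.0 and 16.7 at CA 50 μM, and 214 and 63.1 at CA 100 μM. PMEPA1, a TGF-β target that restrains SMAD signalling, read 1292 and 325 units in untreated cells, 774 and 144 at CA 50 μM, and 865 and 338 at CA 100 μM. The log2 ratios at CA 50 μM were -1.10 and -1.36 for WFDC2 and -0.93 and -1.36 for PMEPA1, and each gene had its lowest reading of both probes on the CA 50 μM array. HLA-B, a class I molecule that presents peptides, read 1791 and 611 units in untreated cells, 1104 and 292 at CA 50 μM, and 1579 and 366 at CA 100 μM. Its ratios were -0.89 and -1.25 at CA 50 μM and -0.42 and -0.98 at CA 100 μM. HLA class I genes are alike in sequence, and the files used here do not hold the probe sequences, so that cross-binding by other members of the family was not tested.

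RAB12 also had every probe lower, at -1.08 and -1.96, but one of its spots lay in a disturbed area of the untreated or CA 50 μM array, where spots of dim probes were bright on 1 array alone. It was therefore left out of the named genes, together with LRP1 on the higher side (0.53 and 0.56). The probes of RAB12 read 252 and 57.1 units in untreated cells and 136 and 16.8 at CA 50 μM, and the dimmer one was not well above background at CA 100 μM.

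**Figure D3:**
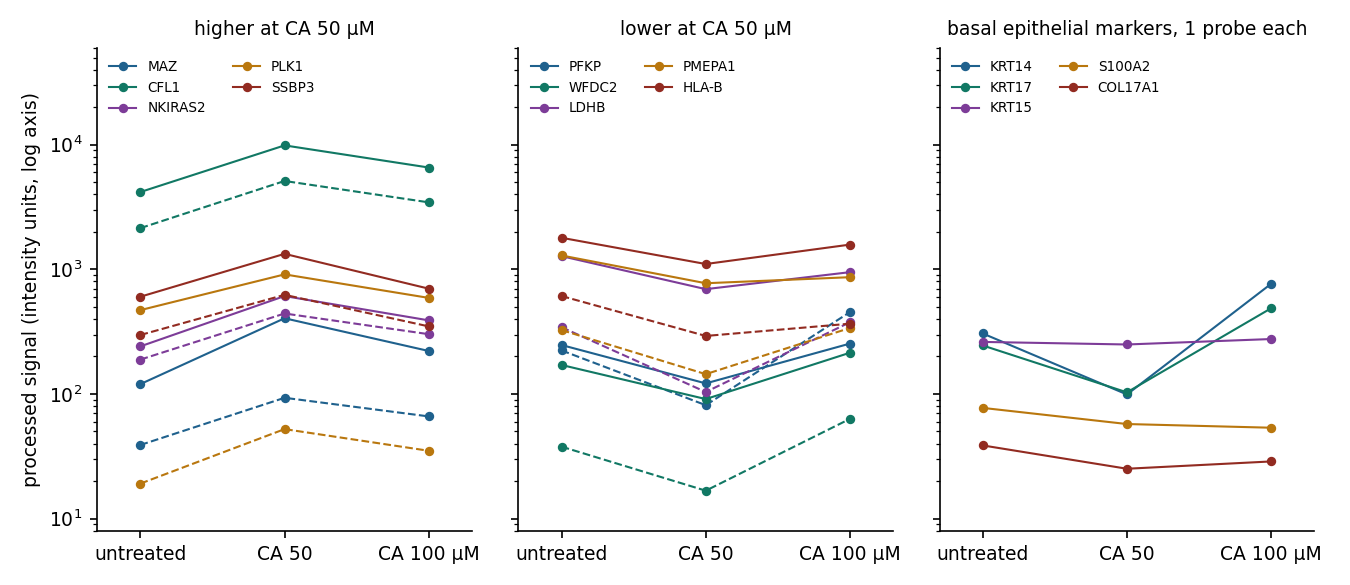
Processed signal in intensity units on a log axis on the 3 arrays, for 5 of the higher genes (left), the 5 leading lower genes (middle) and 5 basal epithelial markers with 1 probe each (right). Solid and dashed lines are the brighter and the dimmer probe of a gene. The higher genes peak at CA 50 μM and the lower genes have their lowest reading there, which their choice by the CA 50 μM value favours. KRT14, KRT17, KRT15 and COL17A1 also have their lowest reading there.

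KRT14 and KRT17, keratins of the basal epithelium, also had their lowest reading on the CA 50 μM array. At CA 100 μM they were above untreated after scaling (log2 ratios 1.09 and 0.75), whereas both probes of LDHB, PMEPA1 and HLA-B were below it. Before scaling, the dimmer probes of LDHB (343 and 376 units) and PMEPA1 (325 and 338) read above untreated at CA 100 μM. KRT14 read 306 units in untreated cells, 99.1 at CA 50 μM and 765 at CA 100 μM. KRT17 read 245, 103 and 487 in the same order. KRT15 read 262, 249.5 and 276, and so was also lowest at CA 50 μM, as was COL17A1. The markers S100A2 (77.3, 57.4 and 53.6) and COL17A1 (38.6, 25.1 and 28.7) remained below untreated at CA 100 μM. They had 1 measured probe each and so were outside the genes described here. Of the 9 basal epithelial markers examined, 6 were well above background in untreated cells and at CA 50 μM, against 7 at CA 100 μM. The sum of all 9 was 1972, 1294 and 2571 units. On none of the arrays were KRT5 and KRT6A well above background. The part of these cells or transcripts in the values of PFKP, LDHB, WFDC2 and PMEPA1 was not tested. In a bulk sample, fewer cells of a type and less RNA per cell cannot be told apart.

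The remaining lower genes of this group changed less. MLF1 read 238 and 36.9 units in untreated cells and 182 and 26.4 at CA 50 μM, with log2 ratios of -0.58 and -0.67, and PLEKHS1 read 39.7 and 28.7 against 30.9 and 19.5, with -0.55 and -0.75. INSIG2, which holds the sterol sensor of cholesterol synthesis in the endoplasmic reticulum, had -0.46 and -0.50, and NPPB, the B-type natriuretic peptide, had -0.65 and -0.46. PRDM8 had -0.57 and -0.49, MCMDC2 -0.52 and -0.48, and the antisense transcript NR2F1-AS1 -0.44 and -0.43. In all of them the probes differed by at most 0.20. Only MLF1 and PLEKHS1 passed 1.5-fold by the gene value, at -0.63 and -0.65, and after normexp they had -0.42 and -0.32. The value of WFDC2 was -0.64 after normexp, against -1.23.

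MLF1 and PLEKHS1 were among 10 genes at least 1.5-fold lower by the gene value without every probe being so. ERAP1 and MICA, which act in peptide trimming for class I molecules and as a ligand of natural killer cells, had gene values of -0.76 and -0.64. The ERAP1 probes gave -0.42 and -1.10, and those of MICA gave -0.89 and -0.38. STARD3, a carrier of sterols on late endosomes, had -1.20 by a probe of 4585 units in untreated cells and -0.29 by a probe of 1188. These 3 genes, chosen after their values were seen, had probes of one sign but of unequal size.

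The promoters of MAZ, CFL1 and LDHB are shown because MAZ had the highest gene value, CFL1 was the brightest gene with every probe higher, and LDHB had the lowest value of the named genes. The 250 bases before the RefSeq transcription start are given 5′ to 3′ on the gene's strand, from build GRCh38.p14, with every match in capitals to the GC box GGGCGG, bound by SP1 and its relatives, to the motif GGGAGGG, bound by MAZ (both on either strand), and to TATAAA. The MAZ stretch is chr16:29806279-29806528 (+), the CFL1 stretch chr11:65858181-65858430 (-) and the LDHB stretch chr12:21657843-21658092 (-).
MAZ: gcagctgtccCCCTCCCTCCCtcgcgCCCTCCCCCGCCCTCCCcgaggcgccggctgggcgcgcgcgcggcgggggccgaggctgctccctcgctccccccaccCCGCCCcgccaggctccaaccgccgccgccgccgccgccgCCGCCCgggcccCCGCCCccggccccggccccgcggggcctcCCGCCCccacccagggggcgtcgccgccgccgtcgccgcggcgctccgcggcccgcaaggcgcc
CFL1: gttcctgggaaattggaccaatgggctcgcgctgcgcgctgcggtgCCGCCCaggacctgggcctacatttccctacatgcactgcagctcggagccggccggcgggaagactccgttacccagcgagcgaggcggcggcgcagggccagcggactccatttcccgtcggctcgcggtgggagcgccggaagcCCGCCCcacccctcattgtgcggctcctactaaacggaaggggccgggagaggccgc
LDHB: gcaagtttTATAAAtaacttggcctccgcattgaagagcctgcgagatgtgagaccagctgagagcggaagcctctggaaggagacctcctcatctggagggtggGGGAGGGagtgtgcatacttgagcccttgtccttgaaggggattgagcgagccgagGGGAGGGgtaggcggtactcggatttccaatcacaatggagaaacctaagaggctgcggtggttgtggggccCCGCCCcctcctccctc
The MAZ promoter was 88.8% G or C, and held 5 GC boxes and 4 MAZ motifs, some of which overlap. The CFL1 promoter held 2 GC boxes and 0 MAZ motifs, and that of LDHB held 1 GC box, 2 MAZ motifs and 1 TATAAA.

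A promoter could be assigned to 1802 of the 3266 genes, namely those with 1 entry in the RefSeq table. GC boxes were present in 68.8% of them and in 40.9% of all 22114 genes with 1 entry, so that genes with several measured probes differed from the table as a whole before any change was considered. Of the 26 genes with every probe higher that had a promoter, 20 held a GC box (76.9%) and 8 held the MAZ motif (30.8%, beside 29.7% of the 1802). TATAAA was found in 0 of the 26 and in 72 of the 1802. A match is a description of these letters only.

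The probes of a gene often disagreed in direction. All measured probes had the same sign in 1636 of the 3266 genes (50.1%), of which 847 were above and 789 below 0. Among the 2774 genes with 2 probes this share was 53.6%, and it fell to 31.1% with 3 probes and to 25.3% with 4 or more, where more readings must agree. Probes with the same accession shared a sign about as often as probes of different accessions, with 53.8% of 2187 genes and 53.0% of 587, and the median differences between probes were 0.23 and 0.24.

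The highest and the lowest probe of a gene differed by a median of 0.25 on the log2 scale, with quartiles of 0.12 and 0.46, and by at least 1 in 86 genes (2.63%). Spots of one probe were far closer, since the ratio had a median SD of 0.06 over 814 probes printed 10 times, whereas the typical SD between 2 probes of a gene was 0.16. Any probe past 1.5-fold was found in 416 of the 3266 genes, and 376 of the 416 had another probe that did not pass in the same direction. Of single measured probes 5.05% were higher and 2.17% lower by this size. A gene with at least 2 probes can pass by any of them, so these shares of probes are not a background for the 416 genes.

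Agreement followed the size of the change. The share with probes of one sign was 21.2% of the 1269 genes with values under 0.1, 56.6% at 0.1 to 0.2, 76.5% at 0.2 to 0.4, 80.9% between 0.4 and 1.5-fold, and 90.6% of the 96 genes beyond that. A median far from 0 needs probes on its side, so this order is partly built in. Of the 80 higher genes 72 had all probes above 0, and of the 16 lower genes 15 had all probes below 0.

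The dimmer probe gave the higher ratio in 69.2% of the genes, by a median of 0.15 between the dimmest and the brightest probe. The gap in signal between them, in log2 units, had a median of 2.26. In the class of genes with the smallest gap, up to 0.86, probes shared a sign in 63.0% and the dimmest was higher in 58.7%. In the class with the largest gap, from 4.26, the figures were 36.0% and 78.3%. After cyclic loess, which removes a trend of the ratio with signal, the dimmest probe was still higher in 63.9% of genes, by a median of 0.10. Across genes, the ratios of the brightest and the dimmest probe had a Pearson correlation of 0.26 and a Spearman correlation of 0.22 (3266 genes, which share both arrays and are not independent).

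**Figure D4:**
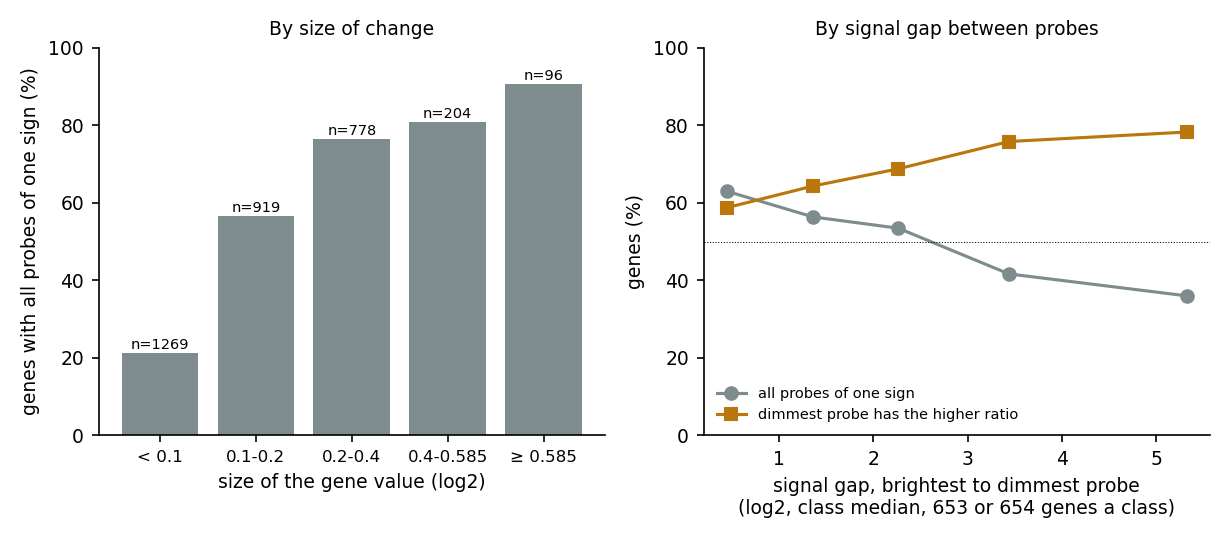
Left, the percent of genes whose measured probes all had one sign, by the size of the gene value on the log2 scale (n genes above each bar); right, the same percent and the percent of genes whose dimmest probe had the higher ratio, by the gap in signal between brightest and dimmest probe in 5 classes. Agreement grew from 21.2 to 90.6% with the size of the change and fell from 63.0 to 36.0% with the gap, while the dimmest probe was higher in 58.7 to 78.3%.

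Signal also set where the calls lay. In 5 equal classes of signal, the median gene value was 0.05 in each of the 3 dimmest classes, 0.01 in the next and -0.05 in the brightest. The 2 dimmest classes held 60 of the 80 higher and 12 of the 16 lower genes. The brightest class had 3 higher genes and 1 lower, and a median difference between probes of 0.20 against 0.31 in the dimmest.

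CTNNB1, which encodes β-catenin of adherens junctions and Wnt signalling, was the single gene with probes past 1.5-fold in opposite directions. A probe printed 10 times read 2357 units in untreated cells, 1139 at CA 50 μM and 1754 at CA 100 μM, with a log2 ratio of -1.24 and an SD of 0.08 between its spots. The other probe, of another accession, read 47.5, 214 and 99.7, with a ratio of 1.98. The gene value of 0.37 therefore describes neither probe, and no direction is given for CTNNB1.

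Several other genes with the widest differences between probes paired a flat bright probe with a dim probe that was far higher. DPP9, a cytosolic peptidase, had -0.23 by a probe of 7359 units in untreated cells and 1.45 by a probe of 21.6. H2BC18, a histone gene with close copies, had 0.01 and 1.84. Both had a gene value past 1.5-fold although the bright probe lay within 0.23 of 0, and the brightest probe alone reversed the sign of DPP9. After normexp the gene values were 0.12 for DPP9 and 0.40 for H2BC18, both under 1.5-fold.

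SET, a histone chaperone, had ratios of 0.03, -0.47 and 1.30 by probes of 20148, 7536 and 63.0 units in untreated cells. ZNF233 had 1.76 and -0.13 by probes of 17.5 and 24.2 units. VGLL3, a cofactor of TEAD factors, had -0.07 and -1.84. SERPINA3, the acute-phase protein antichymotrypsin, had -1.96 by a probe of 1450 units in untreated cells, 425 at CA 50 μM and 505 at CA 100 μM, whereas its other probes gave -0.43 and -0.11. At CA 100 μM these other probes read 478 and 249.96 units, from 147 and 43.7 in untreated cells, so that the probes of SERPINA3 moved in opposite directions there.

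The genes with the most probes are given by their range. RPL21, a ribosomal protein with numerous processed copies in the genome, had 8 probes between -0.29 and -0.13 and a gene value of -0.23. ST13, a cochaperone of HSP70, had 7 probes between -0.18 and 0.13 and a value of -0.06. PDE4DIP, a centrosomal scaffold, also had 7, from -0.57 to 0.12, and a value of 0.06. SMG1, a kinase of nonsense-mediated decay, had a value of 0.40 over 6 probes from -0.05 to 0.67. Of the 87 genes with 4 or more probes, 0 passed 1.5-fold by the gene value in either direction, beside 2.45% higher and 0.49% lower of all 3266 genes, shares at which few of 87 would pass.

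Members of the gene lists numbered 217, of which 6 were at least 1.5-fold higher and 3 lower, beside 2.45% and 0.49% of all 3266 genes and 4.19% and 2.09% of all measured genes. The lists, their medians and the agreement of probes are described without a test, beside the median of 0.02 over all 3266 genes. From a list of 18 genes drawn up around the study, SUMO2 and MCM7 entered, of which the paper does not name MCM7. SUMO2, a small ubiquitin-like modifier, had a value of 0.09, and MCM7, of the replicative helicase, 0.40. The MCM7 probes gave 0.11 at 15549 units in untreated cells and 0.68 at 254 units. Genes named below beyond the highest and lowest of a list (RPS28, UQCRB, SLC2A3, LDHA, CCNB1, MKI67, ATG9A and TFE3) were chosen after their values were seen.

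Among 7 control genes the median was 0.01, and the highest value was 0.20 for TUBB. All probes of TUBB were above 0, whereas RPLP0, YWHAZ, ACTB, PPIA and SDHA had probes on both sides. The signs of the latter 5 changed with the scaling or with the choice of probe, so that no direction is given for them.

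Ribosomal proteins, which build the ribosome, were the list with the most members and, among lists with 2 or more members, the lowest median. Of 38 genes, 33 were below 0, with a median of -0.21, and 24 had all probes below 0 against 0 with all probes above. RPL26 had the lowest value (-0.50, probes at -0.39 and -0.60), followed by RPL23 (-0.40) and RPS28 (-0.37), and RPL13A the highest (0.17, with probes from -0.24 to 0.21). None passed 1.5-fold by the gene value. These were among the brightest genes, where values of all genes tended below 0, and the median of the list became -0.04 after cyclic loess and -0.0049 in the log2 table of the authors. At CA 100 μM the median was -0.19.

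The 11 subunits of oxidative phosphorylation had a median of -0.15, with 9 below 0 and 6 with all probes below 0. UQCRH of complex III had -0.36 with both probes below 0, NDUFA12 of complex I -0.33 and UQCRB of complex III -0.24, against 0.09 for NDUFA10 and 0.05 for SDHA. The median was -0.04 after cyclic loess, and as with ribosomal proteins no gene passed 1.5-fold. In glycolysis, 8 genes had a median of -0.14. PFKP and LDHB were at least 1.5-fold lower by every probe, and SLC2A3, a glucose transporter, had -0.34 with both probes below 0. HK2, a hexokinase, had 0.28 with probes at -0.05 and 0.61, and PGAM1, phosphoglycerate mutase, had 0.25 with both above 0. LDHA, the other main lactate dehydrogenase subunit, was at -0.05.

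**Figure D5:**
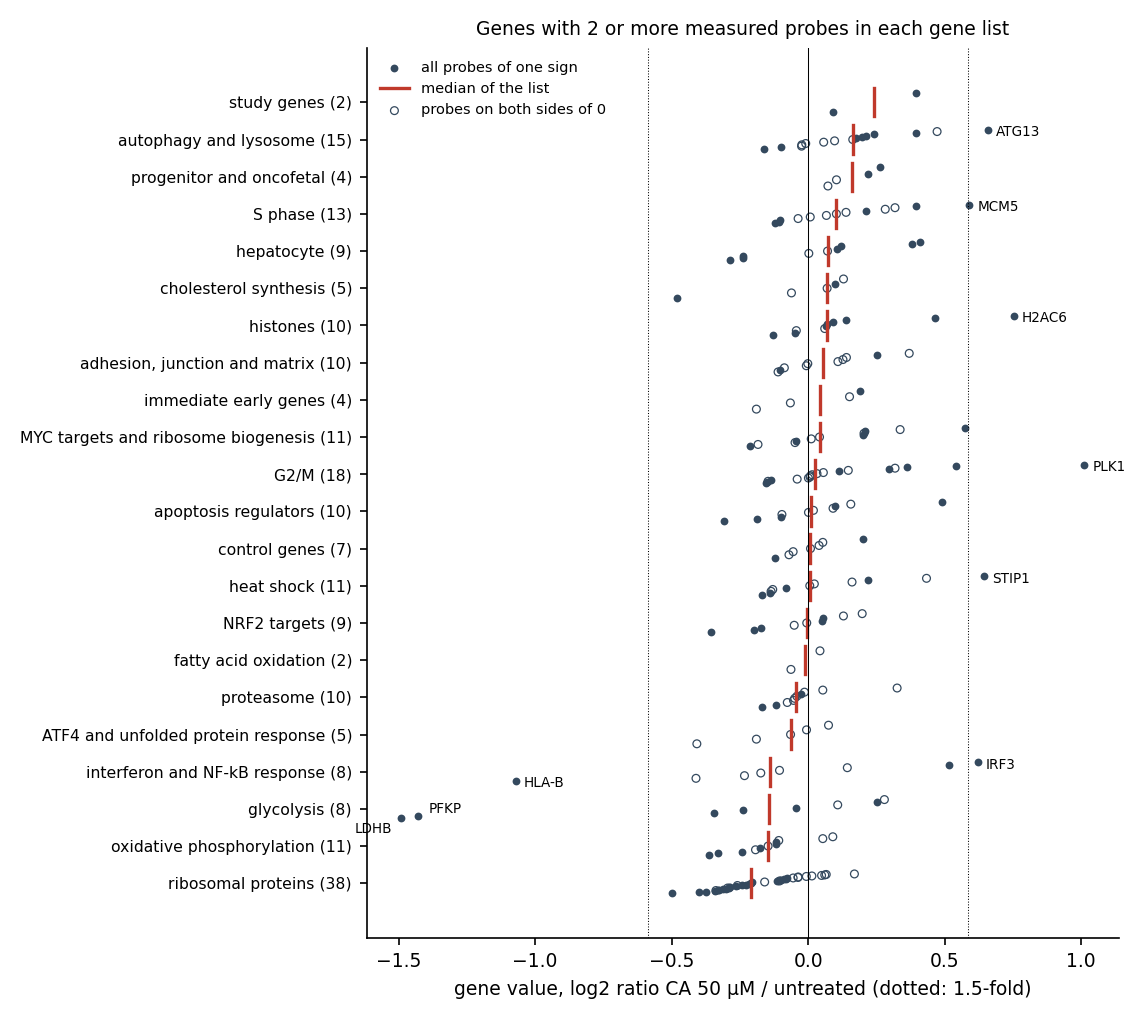
Gene values (x axis, log2 of CA 50 μM over untreated; dotted lines, 1.5-fold) of the genes with at least 2 measured probes in each list with 2 or more such genes, whose number follows the list's name. Filled points had all probes of one sign and the red bar is the median. It ran from -0.21 in ribosomal proteins to 0.24 in the 2 genes of the list of study genes (SUMO2 and MCM7). Genes past 1.5-fold carry their names.

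In the cell cycle, the 13 S phase genes had a median of 0.10 and the 18 G2/M genes of 0.02. Over all measured genes of these lists (58 and 65) both medians were 0.01. MCM5, of the replicative helicase, was at 0.59, with probes at 0.46 and 0.72, while PCNA, the sliding clamp of DNA polymerase, had -0.11 and RPA1 -0.12, each with both probes below 0. Beside PLK1 (1.01), the chromosome motor KIF22 had 0.54 and the proliferation antigen MKI67 0.36, with all probes above 0. ASPM and SMC4, of the spindle pole and of condensin, had -0.15 each, and CCNB1, cyclin B, had 0.01. MCM5 and PLK1 were the genes of these lists past 1.5-fold, both higher. After normexp neither passed, with 0.51 for MCM5 and 0.47 for PLK1. MCM5 was also under 1.5-fold in other alternatives, among them median centring, cyclic loess (0.58) and the brightest probe (0.46).

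The 15 genes of autophagy and lysosomes had a median of 0.16, with 6 above 0 by all probes and 2 below. Over all 48 measured genes of this list the median was 0.02. ATG13 read 336 and 70.4 units in untreated cells, 589 and 130.2 at CA 50 μM and 474 and 112 at CA 100 μM, which gave 0.62 and 0.70 on the log2 scale at CA 50 μM. After normexp its gene value was 0.42, under 1.5-fold. ATG9A, of the vesicles that seed autophagosomes, was at 0.39 and TFE3, which drives lysosomal genes, at 0.24, each with both probes above 0. ATG2A had 0.47, but by probes at -0.04 and 0.99. ATG5 and GABARAPL1, of the conjugation step, had -0.16 and -0.10 with both probes below 0.

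Among 8 genes of the interferon and NF-κB response the median was -0.14. IRF3, the factor that switches on interferon genes, had 0.62 (probes at 0.74 and 0.50), and RELA, the p65 subunit of NF-κB, had 0.52 (0.57 and 0.47), both with all probes above 0. The gene value of IRF3 was 0.57 after normexp, just under 1.5-fold, and was also just under it after median centring. HLA-B was at -1.07 with both probes below 0. OAS2 had -0.41, but its brightest probe gave 0.81. Its probes therefore gave no common direction.

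Of 9 hepatocyte genes, 4 were above 0 by all probes and 3 below, with a median of 0.07. Over all 54 measured genes of this list, most with 1 measured probe, the median was -0.13. APOA1, the main protein of high-density lipoprotein, had 0.41, with 0.16 by the brighter probe at 19639 units in untreated cells and 0.67 by the dimmer at 6462. KRT8, a keratin of simple epithelia, had 0.38, again with the larger ratio from the dimmer probe (0.06 and 0.70). ARG1, of the urea cycle, had -0.29, with both probes below 0. Of 4 progenitor and oncofetal genes IGF2BP2 had 0.26, DLK1 0.22, GPC3 0.10 and IGF2 0.07. The last pair had probes on both sides of 0. Over all 23 measured progenitor and oncofetal genes the median was -0.02.

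In the remaining lists few genes stood apart. Histones (10 genes, median 0.07) included H2AC6 at 0.75, with probes at 0.21 and 1.30, and H2BC21 at 0.47. Heat shock genes (11, median 0.01) included STIP1, the adaptor between HSP70 and HSP90, at 0.64 with probes at 0.73 and 0.56, and HSPB1 at 0.43 with probes at -0.12 and 0.98. MYC targets and ribosome biogenesis (11, median 0.04) ran from -0.21 for NPM1 to 0.57 for NOC2L. Apoptosis regulators (10, median 0.01) ran from -0.31 for XIAP to 0.49 for BAX, with all probes of one sign in both. Of these genes, H2AC6 and STIP1 passed 1.5-fold by the gene value, and H2AC6 had 0.20 after normexp.

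The NRF2 targets (9 genes) had a median of -0.0049, the genes of ATF4 and the unfolded protein response (5) of -0.06, the proteasome (10) of -0.05, adhesion and junction genes (10) of 0.05, cholesterol synthesis (5) of 0.07, fatty acid oxidation (2) of -0.01 and immediate early genes (4) of 0.04. Among them FTH1, the heavy chain of ferritin, had -0.35 by probes at -0.27, -0.35 and -0.42, and SEL1L of protein quality control in the endoplasmic reticulum had -0.41 with a probe at 0.0020. ATF3, a stress-induced factor, had -0.19 while its probes ranged from -0.22 to 0.63. None of these lists held a gene past 1.5-fold. Of marker lists for other cell types, PECAM1 of endothelium (0.12) and PTPRC of blood cells (-0.03) were the single genes of their lists that entered, and 0 genes of the fibroblast list did.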

How the data were processed

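Total RNA of untreated Huh7 cells and of cells treated with CA at 50 or 100 μM was measured on 1 one-colour Cy3 array per group after linear amplification. The authors read the images with Feature Extraction 11.0.1.1. In the deposited files the processed signal of a spot is an intensity after background subtraction. They also hold the signal and background intensity of each spot and flags for outliers, saturation and a signal well above background. A table of log2 values per probe, deposited by the authors with unstated scaling, was used as an alternative only; its columns share 1 median, and over probes their Pearson correlation with the log2 intensity was 0.999957 or higher.

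The log2 processed signal was centred on the array's own 75th percentile, taken over gene spots that carried no outlier flag, and the spots of a probe were averaged. A probe was measured when at least 50% of its spots were well above background on both arrays. Genes were assigned through RefSeq accessions and a gene table of GRCh38.p14, which named 75.5% of 34127 probes. A gene needed at least 2 measured probes, and its value was their median. Probes of multigene families may bind several genes.

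With 1 array per group no test was run, and the number of arrays limits the precision. A size of 1.5-fold served as the call. The genes named were the 12 higher and 12 lower with the largest probe nearest to 0 among genes with probes of one sign and no spot in a disturbed area, the 8 with the largest difference between probes, all study and control genes, and the 2 highest and 2 lowest of each of 26 lists; genes named beyond these complete a counted set or were chosen after their values were seen. Some genes that met this rule are not reported here. Members and lists were chosen with earlier results of these data known. Other alternatives were quantile normalization, cyclic loess, median centring, normexp with an offset of 50, other filters on dim probes, grouping by accession, the mean or the brightest probe, a 2-fold size, and leaving out saturated spots, disturbed areas, probes printed 10 times or, chosen after seeing the data, spots with background flags. The steps were tested on simulated data. Python 3.11.15, pandas 2.3.3, R 4.3.3 and limma 3.58.1 were used.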

Additional observations from a re-analysis of the deposited data

How the results depend on the processing

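The counts of genes at least 1.5-fold higher and lower (80 and 16) became 15 and 9 after normexp background correction, 243 and 189 with no filter on dim probes, 133 and 36 with a filter on 1 array, and 6 and 6 at 2-fold, and the lower count became 28 with the brightest probe. After quantile normalization the 80 and 16 became 64 and 19, and after cyclic loess 64 and 18. They were 62 and 20 with median centring, and 61 and 20 in the authors' log2 table. Genes with every probe higher (34) became 9 after normexp, 56 with no filter and 3 at 2-fold. They were 24 after quantile normalization and in the authors' table, and 25 after cyclic loess and median centring. Those with every probe lower (6) became 32 with no filter and 10 with a filter on 1 array. They were 7 after quantile normalization, and 8 after cyclic loess, after median centring and in the authors' table. Of the 6, WFDC2 left the set after normexp, RAB12 without the disturbed areas, and PMEPA1 and HLA-B at 2-fold, and 4 genes were counted when grouped by accession, where membership was not compared. The share of genes with probes of one sign was 52.3% after quantile normalization, 52.6% after cyclic loess, 52.8% after normexp, 52.6% in the authors' log2 table and 51.9% grouped by accession. The median difference between probes was 0.23 after quantile normalization and after cyclic loess and in the authors' table, 0.19 after normexp, 0.33 with no filter, 0.27 with a filter on 1 array and 0.24 grouped by accession. The cause of these shifts was not tested. Of the called genes 83.3% were higher, against 62.5% after normexp, 56.3% with no filter and 72.5% with the brightest probe. The share was 77.1% after quantile normalization, 78.0% after cyclic loess, 75.6% with median centring and 75.3% in the authors' table.

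With the brightest probe, DPP9 (-0.23) reversed. The 12 higher and 12 lower named genes kept their sign throughout. They were chosen because all their probes lay well to one side of 0, so this outcome was largely fixed by the choice. Of all 109 named genes examined, which include these, 76 kept their sign, as did 11 of 25 list medians. Most calls rest on dim probes, cultures were not replicated, and the disturbed band of the CA 100 μM array touches some values there, among them those of ATG13, CFL1 and SAMD4B. No paired analysis was possible because each group had 1 array.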
